A study of Danio rerio with 4 samples.

Results

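Stomatin family genes code for membrane proteins that share the SPFH (band 7) domain and assemble into oligomers. Stomatin and STOML3 insert a hairpin into the inner leaflet of a membrane and lie in cholesterol-rich patches. In mammals they bind ion channels and transporters and change how these open or carry their cargo, and the MEC-2 protein of C. elegans has such a part in the touch receptor. Human stomatin is best known from red blood cells, mouse STOML3 from the mechanosensitivity of touch neurons, and STOML2 from the inner membrane of mitochondria, where it binds cardiolipin and prohibitins. The genes stoml3a, stoml3b, stom and stoml2 were followed here in sorted zebrafish β-cells, and all 4 were found by their symbols among the 22044 genes of the deposited table. The set was chosen by the difference between the genotypes measured in these same libraries, in which stoml3a stands out, so the values of the 4 genes in this contrast are given as a description, without a test.

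Both groups were 3-month-old fish that carried the β-cell reporter labelled Tg(ins:mKO) and named Tg(ins:nlsRenilla-mKO2) in the methods, which the controls share, and the transgenic group carried in addition Tg(ins:IL1B), written Tg(ins:il1b) below. In this transgene the insulin promoter drives a shortened zebrafish il1b that stands for the mature cytokine, and the line goes back to 1 founder. Controls (WT) were siblings without the transgene, and each group gave 2 libraries of FACS-sorted cells from dissected islets. Whether the libraries of a group came from separate pools of fish is not stated in these sources, so the spread between them may be technical.

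The libraries held 28524617 to 35637508 reads in genes, and values are given as normalised counts, the reads of a gene divided by 1 scaling factor per library. All 4 family genes reached the minimum of 10 normalised counts in at least 2 libraries that was set for the fit over all genes. The transgene checked the labels, since il1b had 11 and 1.9 normalised counts in WT, against 587911 and 423851 in Tg(ins:il1b). Insulin (ins) made up 18.5% and 24.5% of the WT reads, against 11.7% and 9.56% in Tg(ins:il1b), so the hormone that marks β-cells was abundant in all 4 libraries. Genes of other islet and blood cells were present as well. The 4 δ-cell markers summed to 95215 and 2097 normalised counts in WT, against 47229 and 1141632 in Tg(ins:il1b), so that Tg(ins:il1b) replicate 2 stood apart. The 4 α-cell markers summed to 24145 and 32748 in WT, against 198981 and 440358 in Tg(ins:il1b). The 15 macrophage and leukocyte markers summed to 3749 and 16614 in WT, against 18576 and 54112 in Tg(ins:il1b), mostly from the antigen presentation genes cd74a and cd74b. In bulk samples of this kind, more cells of a type and more RNA per cell cannot be told apart.

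The STOML3-like gene stoml3a carried the difference within the family. It lies on the minus strand of chromosome 15 from 3257011 to 3265435 of GRCz10 (ENSDARG00000079914), and no other gene of the table overlaps it. Its level was 81.7 and 86.8 normalised counts in the 2 WT libraries, against 2491 and 1930 in Tg(ins:il1b). Both Tg(ins:il1b) libraries were thus far above both WT libraries, and the closest pair of libraries across genotypes still differed 22.2-fold. The means were 84.2 ± 3.61 for WT against 2211 ± 397 for Tg(ins:il1b) (SD, n = 2), a ratio of 26.2. On the log2(value + 1) scale the fold change was 4.69 (standard error, SE, 0.28, from the limma fit over all genes tested), the 116th largest among 18504 genes tested and the 64th among the 11724 genes whose mean reached 100. Leaving out each library in turn gave a log2 fold change of 4.50 to 4.87. Both WT values lie below 100, so stoml3a is in the second ranking only through its Tg(ins:il1b) values. Nothing is read from either rank, since the contrast chose the genes.

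In WT β-cells stoml3a rested on 89 and 90 whole reads. Their exact Poisson 95% intervals correspond to 65.6 to 100.6 and 69.8 to 107 normalised counts. The Tg(ins:il1b) libraries held 2465 and 1806 reads, with intervals of 2394 to 2592 and 1842 to 2021 normalised counts. Between the WT libraries the gene differed by less than counting error, and between the Tg(ins:il1b) libraries by more. Such intervals cover counting error only, since amplified reads are not independent molecules.

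The other STOML3-like gene, stoml3b, was hardly expressed. It lies on the minus strand of chromosome 10 from 24671777 to 24678779 (ENSDARG00000057035) and had 12.9 and 10.6 normalised counts in WT, against 16.2 and 48.1 in Tg(ins:il1b). Both Tg(ins:il1b) values exceeded both WT values, but only replicate 2 did so by more than counting error. Its 45 reads gave an interval of 35.1 to 64.3 normalised counts, whereas the 16 reads of replicate 1 gave 9.24 to 26.3, which overlapped the WT intervals of 7.03 to 21.6 and 5.30 to 19.0. The log2 fold change was 1.19 (SE 0.82, limma). It was 0.44 without Tg(ins:il1b) replicate 2 and 1.95 without replicate 1, so 1 library decided its size. Further, 5153 bases of stoml3b are shared with vps36, a gene of endosomal sorting on the other strand, and the strand setting of the counting is not given in the sources used here. The gene vps36 had 325 and 461 normalised counts in WT, against 425.5 and 229.8 in Tg(ins:il1b). Whether reads of vps36 entered or lowered the stoml3b values was not tested. How reads that map to both stoml3 copies were counted is not given either, so these low values are uncertain.

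The founding member of the family, stom, codes for stomatin itself and lies on chromosome 21 from 17505797 to 17533615 (ENSDARG00000003835). It had 483 and 606 normalised counts in WT, against 415 and 976 in Tg(ins:il1b). The groups overlapped, because the lowest and the highest value of all 4 libraries both came from Tg(ins:il1b). The means were 544.5 ± 86.8 and 696 ± 396 (SD, n = 2), and the log2 fold change was 0.23 (SE 0.43, limma). Its sign depended on Tg(ins:il1b) replicate 2, without which the log2 fold change was -0.38, while without replicate 1 it was 0.85. The Tg(ins:il1b) values differed by more than counting error, with intervals of 376 to 458 and 913 to 1041 normalised counts.

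The mitochondrial member, stoml2, was the steadiest. It lies on chromosome 10 from 16899545 to 16910357 (ENSDARG00000103135) and had 261.8 and 264.3 normalised counts in WT, against 298.1 and 301.4 in Tg(ins:il1b). The groups did not overlap, but the means of 263 ± 1.77 and 299.8 ± 2.33 (SD, n = 2) differed only 1.14-fold. The 274 to 295 reads per library gave intervals of 232 to 294 and 234 to 298 in WT and 265 to 334 and 267 to 339 in Tg(ins:il1b), which all overlapped. Single libraries of the 2 groups therefore did not differ beyond their counting intervals at this depth, and the spread between its replicates was smaller than counting alone would give. The log2 fold change was 0.19 (SE 0.29, limma). In all, 3 of the 4 genes had both Tg(ins:il1b) libraries above both WT libraries and 0 had them below, where 22.3% and 22.1% of all genes tested did so. Nothing is read from this count, since the contrast chose the genes.

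**Figure D1:**
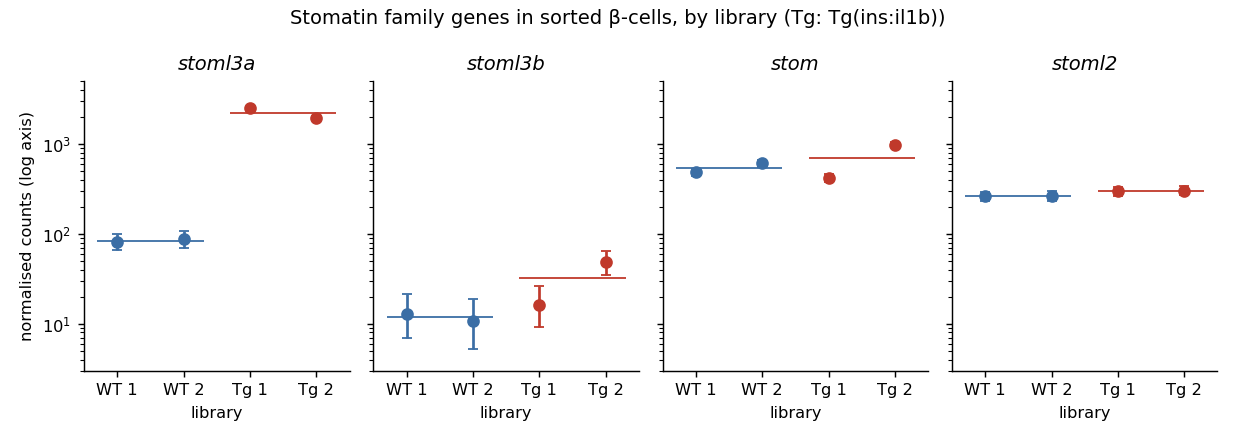
Normalised counts (log axis) of stoml3a, stoml3b, stom and stoml2 in the 2 WT (blue) and 2 Tg(ins:il1b) (red, Tg) libraries. Points are libraries, bars are exact Poisson 95% intervals of the reads behind them and lines are group means. The red points of stoml3a, at 2491 and 1930, stand far above its blue points at 81.7 and 86.8, while the colours of stom overlap.

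Levels of different genes were compared as normalised counts per kb of gene model, with model lengths of 2580, 1193, 3933 and 1260 bases for stoml3a, stoml3b, stom and stoml2. In WT the order was stoml2 with 208 and 210 per kb, stom with 123 and 154, stoml3a with 31.7 and 33.6 and stoml3b with 10.8 and 8.89. No neighbours in this order overlapped between libraries. In Tg(ins:il1b), stoml3a came first with 966 and 748 per kb. Below it, stoml2 with 237 and 239 and stom with 106 and 248 overlapped, and stoml3b came last with 13.6 and 40.3. The gene stoml3a thus went from the third to the first place, and the other 3 genes kept their relative order by mean level, although stom exceeded stoml2 in Tg(ins:il1b) replicate 2.

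The makeup of the family followed this one gene. Of the summed level per kb, stoml3a made up 8.49% and 8.28% in WT, against 73.1% and 58.6% in Tg(ins:il1b). The share of stoml2 was 55.7% and 51.6% in WT against 17.9% and 18.8% in Tg(ins:il1b), although its own level hardly differed. Among all genes tested, the level per kb of stoml3a was at percentile 32.0 and 33.3 in WT and at 90.5 and 88.1 in Tg(ins:il1b). The gene stoml2 was at percentile 69.2 and 69.5 in WT, against 71.4 and 71.6 in Tg(ins:il1b). Without stoml3a, the family summed to 757.8 and 880.8 normalised counts in WT, against 729.7 and 1325 in Tg(ins:il1b), and these ranges overlap. Between the 2 stoml3 copies, the ratio of stoml3a to stoml3b per kb was 2.93 and 3.79 in WT, against 71.1 and 18.6 in Tg(ins:il1b).

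**Figure D2:**
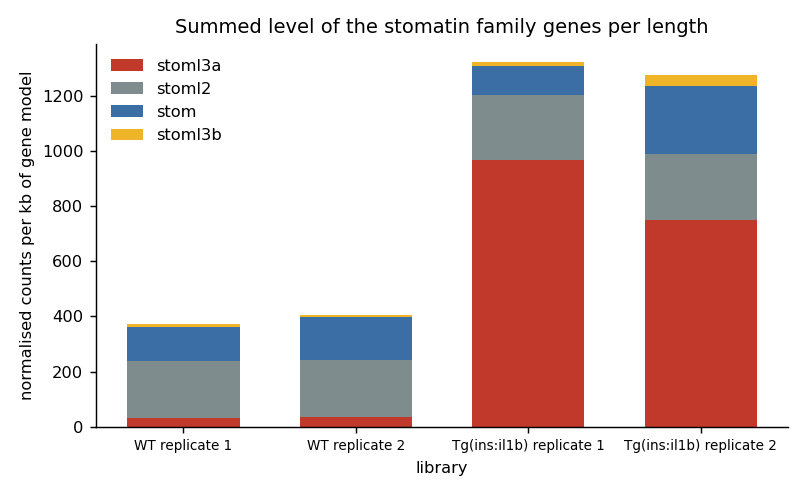
Summed level of the 4 stomatin family genes in each library, in normalised counts per kb of gene model, with 1 bar per library divided by gene. The red part, stoml3a, is 31.7 and 33.6 per kb in WT, against 966 and 748 in Tg(ins:il1b), while the grey part, stoml2, stays between 208 and 239.

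Sums of markers of other cells were set beside these values. The α-cell and leukocyte sums, like stoml3a, did not overlap between the genotypes and were higher in Tg(ins:il1b), while the δ-cell sum overlapped. The duct and epithelial sum did not overlap either, with 18016 and 10719.5 in WT, against 18369.5 and 32159 in Tg(ins:il1b). Within Tg(ins:il1b) the order differed, since replicate 2 had the higher α-cell and leukocyte sums and the lower stoml3a value, 1930 beside 2491. The leukocyte sum was 16614 in WT replicate 2 and 18576 in Tg(ins:il1b) replicate 1, where stoml3a had 86.8 and 2491. These sums are mostly cd74a, with 10770.5 and 13411.3 in the same libraries, and cd74b, with 5737.4 and 4963.3. They thus do not show that the libraries held a like share of leukocytes. In limma, 3 of 3 tested α-cell markers, 5 of 12 leukocyte markers, 4 of 9 duct and epithelial markers and 2 of 4 δ-cell markers were higher at an unadjusted p under 0.05, where 7.95% of all genes tested were higher and 6.45% lower. After adjustment limma called 1 of these α-cell markers higher, gcga, and 0 of the leukocyte, duct and epithelial, and δ-cell markers. Of 9 tested markers of the sorted β-cells themselves, 5 were lower and 0 higher at an unadjusted p under 0.05 in limma. After adjustment limma called 1 of them lower, pcsk2 (adjusted p = 0.0186). Both Tg(ins:il1b) libraries were below both WT libraries for 6 of the 9 and above for 2, beside 22.1% and 22.3% of all genes tested. Over all genes tested 1.1% were called higher and 0.53% lower. The leukocyte gene ptprc, named with the next 2 after their values were seen, had 6.4 and 6.8 normalised counts in WT, against 33.4 and 41.7 in Tg(ins:il1b). Of the 15 leukocyte markers, the macrophage gene mpeg1.1 had 0 and 1 in WT, against 0 and 20.3 in Tg(ins:il1b), and the complement gene c1qb had 0.9 and 1.9, against 25.3 and 79.1. The macrophage gene csf1ra, named afterwards too, had 26.6 and 11.6, against 11.1 and 23.5. Of the 12 tested leukocyte markers, 7 had both Tg(ins:il1b) libraries above both WT libraries and 0 below, beside 22.3% and 22.1% of all genes tested. Among them mfap4, c1qb and ptprc reached the minimum of 10 only in Tg(ins:il1b), so the filter fixed their place above WT. The same holds for the α-cell marker arxa, with 0 and 2.9 normalised counts in WT. These genes are also among those higher at an unadjusted p under 0.05, so nothing is read from these counts. The part of these other cells in the stoml3a values was not tested. The highest values of stom and stoml3b came from Tg(ins:il1b) replicate 2, as did those of the δ-cell, α-cell and leukocyte sums. The duct and epithelial, neutrophil, and neuron and glia sums were highest there too, at 32159, 2610.6 and 24273.8. The neutrophil sum is mostly nccrp1, with 1783.6 and 1708.6 in WT, against 1550.3 and 2220.6 in Tg(ins:il1b). The neuron and glia sum is mostly snap25a, syt1a and elavl4, at 14212.7, 4865.4 and 3404.6 in that library. In WT, snap25a had 10226 and 9207.6. These 2 sums thus do not show that this library held more neutrophils, neurons or glia. The acinar sum was highest in WT replicate 2 (7939) and the endothelial and mesenchymal sum in WT replicate 1 (334.3). The part of these cells was not tested either. Of the 11 red blood cell markers only the anion exchanger gene slc4a1a was matched, at 0.9 and 1 normalised counts in WT, against 18.2 and 6.4 in Tg(ins:il1b).

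Other SPFH genes of the zebrafish, listed by family membership, showed no change that passed the test. This list holds stoml1, the prohibitins phb, phb2a and phb2b of the inner mitochondrial membrane, the flotillins flot1a, flot1b, flot2a and flot2b of membrane rafts, and erlin1 and erlin2 of the endoplasmic reticulum. Of these 10 genes, all tested, 0 were called higher and 0 lower by limma on log2(value + 1), where 1.1% of all genes tested were called higher and 0.53% lower. So 0 of 10 is near the share over all genes, and nothing is read from it. DESeq2 and edgeR on the whole reads also called 0 of the 10. Over all genes, DESeq2 called 775 higher and 444 lower among 18145, and edgeR called 167 higher and 69 lower. Nothing is read from 0 of 10 there either. Before adjustment 1 of the 10 was higher and 0 were lower at p under 0.05 in limma, beside 7.95% and 6.45% of all genes tested. Their median log2 fold change was 0.16, beside -0.01 over all genes tested, and the values ran from -0.44 for phb2a to 0.69 for flot2b. Both Tg(ins:il1b) libraries were above both WT libraries for 3 of the 10 and below for 0, beside 22.3% and 22.1% of all genes tested.

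Among them flot1a had the highest mean level per kb in both groups. It had 8684 and 6139 normalised counts in WT, against 8020.5 and 9993 in Tg(ins:il1b), with overlapping groups and a log2 fold change of 0.29 (SE 0.24, limma adjusted p = 0.675). Its relative flot2a had 5498 and 4320 in WT, against 3903 and 5245 in Tg(ins:il1b), which also overlap (adjusted p = 0.902). The gene with the 1 unadjusted call, flot2b, was singled out after its values were seen. It had 383 and 459 normalised counts in WT, against 725 and 633 in Tg(ins:il1b), which gave a log2 fold change of 0.69 (SE 0.26, limma adjusted p = 0.297, 0.253 to 0.692 over the alternatives). The prohibitin gene phb had 3020 and 2353 in WT, against 2983 and 2735 in Tg(ins:il1b), and its limma adjusted p was 0.899. The stomatin-like gene stoml1, which joins the SPFH domain to a sterol carrier domain and was likewise singled out afterwards, had 610.8 and 629 in WT, against 635 and 562 in Tg(ins:il1b), and its limma adjusted p was 0.959. At the mean level per kb, flot1a had 1952 and 2373 in WT and Tg(ins:il1b), so that stoml3a with 857 in Tg(ins:il1b) remained below it, as it did below phb with 1622.

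**Figure D3:**
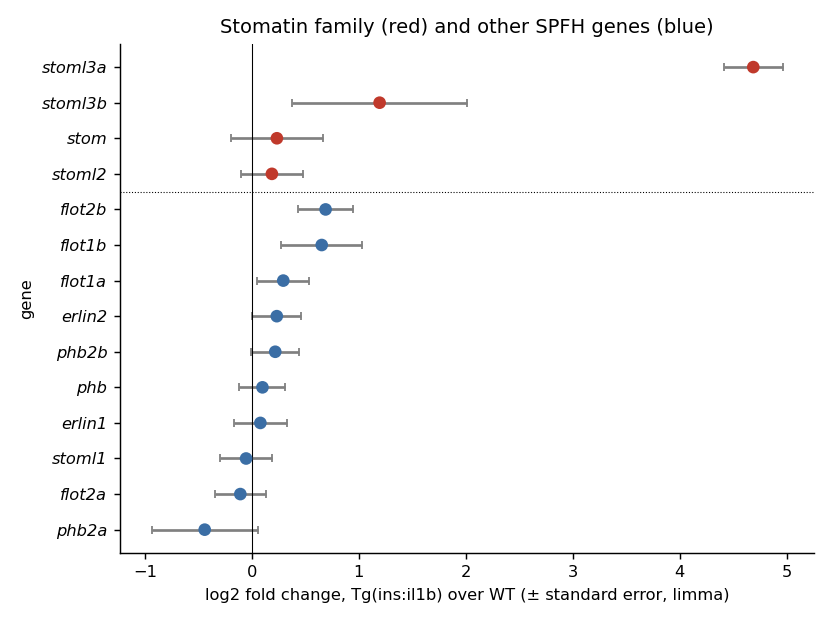
Log2 fold change of Tg(ins:il1b) over WT, on the log2(value + 1) scale, with its standard error from limma, for the 4 stomatin family genes (red, described without a test) and 10 other SPFH genes (blue, tested). The point of stoml3a lies at 4.69, while the blue points lie between -0.44 and 0.69.

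Genes for partners of stomatin proteins and for related membrane functions were taken from 4 further lists. Of 7 acid-sensing and Piezo channel genes, channels whose currents stomatin or STOML3 change in rodents, 5 were tested, and 0 were called by limma, edgeR or DESeq2, with 0 at an unadjusted p under 0.05. Over all genes tested, limma called 1.1% higher and 0.53% lower, and before adjustment 7.95% were higher and 6.45% lower. DESeq2 called 775 higher and 444 lower among 18145, and edgeR called 167 higher and 69 lower. At such shares nothing is read from 0 of 5. Their median log2 fold change was -0.31, beside -0.01 over all genes tested, and the groups did not overlap for 2 higher and 1 lower gene of the 5, beside 22.3% and 22.1% of all genes tested. Of the higher genes, asic1b had 4.6 and 6.8 normalised counts in WT, against 12.1 and 63 in Tg(ins:il1b). It reached the minimum of 10 only in Tg(ins:il1b), so the filter fixed its place above WT. The mechanosensitive channel gene piezo2a.2 had 312 and 306.8 normalised counts in WT, against 221 and 226.5 in Tg(ins:il1b), without overlap, and a log2 fold change of -0.47 (SE 0.29, limma adjusted p = 0.552). The acid-sensing channel gene asic2 had 268 and 204.5 in WT, against 47.5 and 282 in Tg(ins:il1b), with overlapping groups (adjusted p = 0.657), and piezo1 stayed between 9.1 and 42.7 (adjusted p = 0.931). Of 4 genes for transporters that bind stomatin in human red cells, only the glucose transporter gene slc2a1b passed the filter on low values. It had 9.2 and 1 normalised counts in WT, against 18.2 and 25.6 in Tg(ins:il1b), and passed only through the latter. It was not called by limma (adjusted p = 0.403), edgeR or DESeq2, and had an unadjusted p of 0.0737 in limma. Its relative slc2a1a had 27.6 and 4.8 in WT, against 8.1 and 7.5 in Tg(ins:il1b), below the filter.

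Of the mitochondrial genes around stoml2, none passed the limma test. The list holds proteases that act with STOML2 in mammals (yme1l1a, yme1l1b, parla), fusion proteins and cristae genes. Of 19 genes tested, limma and edgeR called 0 and DESeq2 called 1 lower, with 0 higher and 4 lower in limma before adjustment (p under 0.05). Over all genes tested, limma called 1.1% higher and 0.53% lower, so 0 of 19 is near that share and nothing is read from it. DESeq2 called 2.45% lower over all genes, and edgeR called 167 higher and 69 lower. Before adjustment in limma, 7.95% were higher and 6.45% lower. The median of the 19 log2 fold changes was -0.29, beside -0.01 over all genes tested, with both Tg(ins:il1b) libraries below both WT libraries for 8 and above for 3, beside 22.1% and 22.3% of all genes tested. The gene called by DESeq2, chchd6a, a cristae organizing gene, was named after its values were seen. It had 701 and 719 normalised counts in WT, against 357 and 372 in Tg(ins:il1b), which gave a log2 fold change of -0.96 (SE 0.25, limma adjusted p = 0.143 and 0.031 from DESeq2, 0.031 to 0.551 over the alternatives). The related gene chchd3a had 2247 and 2558 in WT, against 1710 and 1688 in Tg(ins:il1b), with a log2 fold change of -0.50 (SE 0.20, limma adjusted p = 0.332). The mitofusin gene mfn2, which fuses outer membranes, had 2775 and 2682 in WT, against 2403 and 2069 in Tg(ins:il1b), without overlap (adjusted p = 0.59). The protease gene parla had 1388 and 1384 in WT, against 1531 and 1025 in Tg(ins:il1b), with overlap (adjusted p = 0.873).

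The caveolin genes cav1 and cav2, whose products also sit as hairpins in cholesterol-rich membrane, had lower values in Tg(ins:il1b) that did not pass the test. Of 6 caveolin and cavin genes matched, 5 were tested, and 0 were called by limma, edgeR or DESeq2, while before adjustment 1 higher and 2 lower had p under 0.05 in limma, beside 7.95% and 6.45% of all genes tested. Over all genes tested, limma called 1.1% higher and 0.53% lower after adjustment. DESeq2 called 775 higher and 444 lower among 18145, and edgeR called 167 higher and 69 lower, so nothing is read from 0 of 5. Their median log2 fold change was -0.71, with 2 genes above and 3 below WT in both Tg(ins:il1b) libraries, beside 22.3% and 22.1% of all genes tested. The caveolin gene cav1 had 2985 and 2294 normalised counts in WT, against 534 and 1668 in Tg(ins:il1b), which gave a log2 fold change of -1.47 (SE 0.51, limma adjusted p = 0.259). Its partner cav2 had 4937 and 4408 in WT, against 2370 and 3413 in Tg(ins:il1b), which gave a log2 fold change of -0.71 (SE 0.24, limma adjusted p = 0.242). Neither gene overlapped between the groups. The gene with the 1 higher value before adjustment was the cavin gene sdprb, named after its values were seen, with 0 and 1 normalised counts in WT, against 10.1 and 38.5 in Tg(ins:il1b). It reached the minimum of 10 only in Tg(ins:il1b), so the filter fixed its place above WT and nothing is read from it. The cavin gene sdpra, a coat protein of caveolae, had 98.3 and 173 in WT, against 76.8 and 32.1 in Tg(ins:il1b), which gave a log2 fold change of -1.37 (SE 0.59, limma adjusted p = 0.364).

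Genes whose values over the 4 libraries were most like those of each family member were sought among all genes whose mean reached 100. Likeness was the Euclidean distance between log2(value + 1), centred on the mean of the 4 libraries, a description without a test in which all genes share the same libraries. For stoml3a the nearest of 11723 genes was ak9, an adenylate kinase gene, at a distance of 0.13. It had 7.3 and 8.7 normalised counts in WT, against 246 and 204 in Tg(ins:il1b), and so shared with stoml3a the somewhat higher value in Tg(ins:il1b) replicate 1. The next were si:ch211-240g9.1 at 0.21, the proteoglycan gene spock2 at 0.23, the thioredoxin gene txn at 0.44 and the synaptic vesicle gene sv2bb at 0.48. The genes ak9, si:ch211-240g9.1, spock2 and sv2bb had only 7.3 to 20.2 normalised counts in WT. They reached the mean of 100 through their Tg(ins:il1b) values alone. Counting error is wide at such WT levels, so the order by distance is uncertain. The thioredoxin gene had 94.6 and 109 normalised counts in WT, against 3221 and 3339 in Tg(ins:il1b), and lacked the higher value in replicate 1. Among these 5 genes the log2 fold change was smallest for spock2, at 4.59, beside 4.69 for stoml3a.

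Each other member had its own nearest genes. For stom they were hmgn3 at a distance of 0.08, ggps1 and mgat4a at 0.09, slain2 at 0.10 and lgi1a at 0.11. All had their highest value in Tg(ins:il1b) replicate 2 and their lowest in replicate 1, a pattern of stom that the choice by likeness selects for. The chromatin protein gene hmgn3, for instance, had 1007.5 and 1257 normalised counts in WT, against 862 and 1900.0 in Tg(ins:il1b). For stoml3b they were RALGDS, pde4bb, tm4sf4, nrbp2a and lrrn3, at 0.11 to 0.21. The gene tm4sf4, for a tetraspan membrane protein, had 2737 and 2358 in WT, against 3546 and 8631 in Tg(ins:il1b). For stoml2 they were rnaseka, the enolase gene eno3, the gene dlst of the tricarboxylic acid cycle, cacna1bb and etf1b, at 0.04 to 0.05. The gene dlst had 1358 and 1351 in WT, against 1521 and 1601 in Tg(ins:il1b), differences about as small as those of stoml2.

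**Figure D4:**
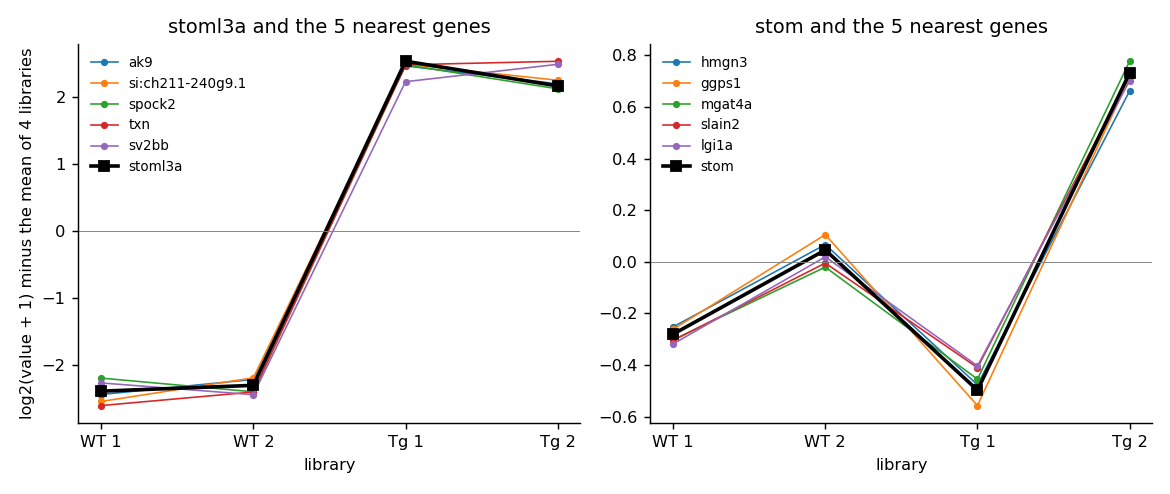
Log2(value + 1) minus its mean over the 4 libraries, for stoml3a (left, black) and stom (right, black) and the 5 nearest genes of each (colours), in 2 WT and 2 Tg(ins:il1b) (Tg) libraries. Lines only join the points of a gene. The genes near stoml3a separate the genotypes, whereas those near stom separate the 2 Tg(ins:il1b) libraries, which follows from choosing them by likeness to each member.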

How the data were processed

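Reads were 2×75 bp pairs from a HiSeq2500, which the authors aligned to GRCz10 by GSNAP, using Ensembl annotation 87. The sources used here do not give the GSNAP version, the counter, the strand setting or the normalising tool. The deposited signal, called normalised counts, is the count of a gene divided by 1 factor per library and rounded to 1 decimal. Whole reads were recovered, as 100% of the values above 0 lay within 0.1 of a whole number once divided by what 1 read is worth. Per library 28524617 to 35637508 reads lay in genes, and a gene of 10 reads has a wide counting error. Replicates differed by more than sampling noise.

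Genes with at least 10 in at least 2 libraries (18504 of 22044) were tested between 2 WT and 2 Tg(ins:il1b) libraries with limma 3.58.1 in R 4.3.3, with the variance trend, on log2(value + 1), which understates the change of low genes. Benjamini-Hochberg adjustment covered all genes tested, at a threshold of 0.05. The p-values and standard errors reflect only the spread between these libraries, with the variance of each gene drawn toward a trend over all genes. DESeq2 1.42.0 and edgeR 4.0.16 on the whole reads, other pseudocounts, filters and scalings, a replicate block and each library left out were the alternatives. Intervals and tables used scipy 1.17.1 and pandas 2.3.3.

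The family members and the lists were chosen with earlier results of these data known. Named genes were the members, the called genes of each related list or otherwise its 3 with the highest mean, the 2 nearest genes on each side of a member, and the 5 genes nearest in pattern. Of the symbols of a marker list, only those matched in the table were summed. Gene lengths were used as given in the table. Sequences were not used here, and 1 gene was left out of the lists.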

Additional observations from a re-analysis of the deposited data

How the results depend on the processing

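The log2 fold change of stoml2 was 0.20 under both TMM scaling (0.1985) and edgeR (0.1992) beside 0.1877 as reported, a shift just larger than the spread of its replicates. With all libraries kept, the other settings gave 4.55 to 4.72 for stoml3a, 0.85 to 1.46 for stoml3b, 0.23 to 0.37 for stom and 0.18 to 0.20 for stoml2, and stoml3b has no value under the filter of at least 50. Leaving out each library in turn gave 4.50 to 4.87 for stoml3a, 0.44 to 1.95 for stoml3b, -0.38 to 0.85 for stom, whose sign turned, and 0.18 to 0.20 for stoml2.

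Over all genes, limma called 204 higher and 98 lower, limma without the variance trend 13 and 0, and DESeq2 775 and 444, which include all 302 called by limma. With 1 library left out, where the lone sample is assumed to vary like the other group, limma called 0 to 1 higher and 0 to 0 lower. Of the 40 tested genes in the lists of related genes, DESeq2 called 1, and no other setting called any. With the replicate block, limma called 293 higher and 144 lower, and deviations of same-numbered libraries correlated at 0.03 across genes, so the numbers were not taken as pairs. Depth limits stoml3b most, with 11 to 45 reads per library. The causes of these shifts were not tested.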

Other observations

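Genes next to the family members on the chromosome were compared between the genotypes, as the 2 nearest on each side in the table. Around stoml3a, CABZ01053588.1 lies 21640 bases away on the other strand and had 12.9 and 15.4 normalised counts in WT, against 89.9 and 145 in Tg(ins:il1b), which gave a log2 fold change of 2.93 (SE 0.57). It was not called by limma (adjusted p = 0.0752), and DESeq2 gave 4.63e-04, with 4.63e-04 to 0.335 over the alternatives. On the other side, the mitochondrial ornithine carrier gene slc25a15a, 2092 bases away and on the same strand, had 3519 and 2774 in WT, against 2132.5 and 1196 in Tg(ins:il1b) (limma adjusted p = 0.229, 0.103 to 0.651 over the alternatives). Further out, rcbtb2 and the forkhead factor gene foxo1a had adjusted p values of 0.97 and 0.35 from limma.

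Beside stom lies the gelsolin gene gsna, which codes for an actin-severing protein, at a distance of 2170 bases on the other strand. It fell from 1734 and 1499 normalised counts in WT to 671 and 593 in Tg(ins:il1b), which gave a log2 fold change of -1.35 (SE 0.23, limma adjusted p = 0.0496). The call stood at the threshold, since 5 of 13 alternatives kept it. With all libraries kept, its adjusted p ran from 9.48e-05 in DESeq2 to 0.191 in limma without the variance trend. The fits with 1 library left out could not keep the call, as they called no gene lower. In them the log2 fold change of gsna was -1.25 and -1.46 without WT replicates 1 and 2. It was -1.44 and -1.26 without Tg(ins:il1b) replicates 1 and 2. The other tested neighbours of stom, gtf3c4 and tsc1b, had adjusted p of 0.925 and 0.804 from limma. The tested neighbours of stoml3b and stoml2, which were proser1, mtus2a, vps36, chsy3, CR855996.1 and CR855996.2, had adjusted p from 0.402 for CR855996.2 to 0.834 for CR855996.1 in limma.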
